A study of Mus musculus with 52 samples.

Results

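Tubulin genes encode the subunits of microtubules, and 10 of them were followed in clones of a mouse kidney cell line: the alpha-tubulin genes Tuba1a, Tuba1b and Tuba1c, the beta-tubulin genes Tubb2a, Tubb2b, Tubb3, Tubb4b, Tubb5 and Tubb6, and the gamma-tubulin gene Tubg1. They were picked by gene symbol from 24421 symbols, not by a threshold on their values, and all 10 passed the low-count filter in each comparison. RNA was sequenced from 13 clones with 4 libraries each (52 libraries), and the question here was which tubulin isotypes each clone used, by ciliation state and by genotype.

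The cells were Cilia-APEX-IMCD3, an immortalized line from the mouse inner medullary collecting duct that grows a primary cilium. Base editing had introduced homozygous missense alleles of Wdr34 or Wdr60, which encode the intermediate chains of dynein-2, the motor that carries cargo from the ciliary tip back to the base. Ciliated cells comprised 3 mutant clones, Wdr60 and the Wdr34 clones numbered 1 and 3, and 4 control clones, A4, D8, G7 and H12. Non-ciliated cells comprised 2 mutant clones, Wdr34 and Wdr60, and 4 control clones, 1, 2, 3 and AB. The study's methods give the alleles as Wdr34 p.Arg183Trp, Wdr34 p.Gly394Ser and Wdr60 p.Ala911Val, with p.Gly394Ser absent from the non-ciliated set and with an unintended heterozygous second change in 1 of the Wdr34 clones and in the Wdr60 clone. The labels do not say which ciliated Wdr34 clone carries which allele. The study's methods name 4 control and 3 mutant clones, so clones of the 2 states may be the same ones. The labels do not link the control clones of the 2 states. Each group of 4 libraries is therefore counted as a clone here, and none was paired between states. Controls had received the BE4-Gam editor plasmid and a guide vector without a target, and every clone, mutant or control, was grown from a single cell. By the study's methods ciliated cells were serum-starved and the non-ciliated set was sequenced earlier, whereas the labels give the same serum-containing medium for all samples, so ciliation, any difference in serum and sequencing run cannot be told apart, and with 1 clone for most genotypes neither can genotype and clone.

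Microtubules are built from dimers of alpha- and beta-tubulin, and gamma-tubulin, within a ring complex at the centrosome and the basal body, starts their assembly. Isotypes within a family have nearly the same core and differ mainly in the acidic C-terminal tail, which carries glutamylation and, on most alpha isotypes, a terminal tyrosine that can be removed and put back. Cells tune tubulin levels through decay of tubulin mRNA during translation, in which the factor TTC5 reads the first residues of the new chain.

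The ends of the coding sequences show both features and how far the isotypes differ in their mRNA. They were read from the GENCODE vM21 transcripts of GRCm38, with the last codon before the stop in capitals. In Tuba1c, shown for the alpha family, this codon encodes the terminal tyrosine.
Tuba1c: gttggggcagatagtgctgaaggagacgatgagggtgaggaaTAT

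The beta tails, shown for the most variable isotypes, the axonemal one and the most abundant one, end in codons for alanine or, in Tubb3, lysine.
Tubb2a: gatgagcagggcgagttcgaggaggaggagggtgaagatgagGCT
Tubb2b: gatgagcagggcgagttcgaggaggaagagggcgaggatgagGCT
Tubb3: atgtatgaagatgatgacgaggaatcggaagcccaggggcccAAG
Tubb4b: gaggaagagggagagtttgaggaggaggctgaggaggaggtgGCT
Tubb5: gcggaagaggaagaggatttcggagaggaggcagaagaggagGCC

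Tubb2a and Tubb2b differed at 3 of these 45 bases (G27A, T33C and A36G, counted from the first printed base with the Tubb2a base first). At the other end, the codons after the start codon, in capitals, are the ones read in the autoregulation of tubulin mRNA. All 3 alpha genes began atgCGTGAGTGC, whereas Tubb5 began atgAGGGAAATC and Tubg1, which is not part of the alpha and beta lattice, atgCCGAGAGAA.

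On GRCm38 the alpha genes lie together on chromosome 15: Tuba1b at chr15:98931425-98934565 and Tuba1a at chr15:98949837-98953703, both on the minus strand, and Tuba1c at chr15:99029891-99038110 on the plus strand. Tubb2a (chr13:34074274-34078007) and Tubb2b (chr13:34126748-34130466) are minus-strand neighbors on chromosome 13. Tubb3 lies at chr8:123411424-123422015 (plus), Tubb4b at chr2:25222160-25224702 (minus), Tubb5 at chr17:35833921-35838306 (minus) and Tubg1 at chr11:101119938-101126419 (plus). The sequence and position of Tubb6 are not given here. Coding sequences of the 3 alpha genes were 97.1% to 98.3% identical and those of Tubb2a and Tubb2b 96.5%, against 80.1% to 86.0% for the other beta pairs. Of all 150-base windows, 54.7% in the Tuba1a transcript, 57.9% in Tuba1b and 46.7% in Tuba1c also occurred in another gene, as did 27.9% in Tubb2a, 20.1% in Tubb2b and 16.8% in Tubb4b. No window of Tubb3, Tubb5 or Tubb6 was shared, and 0.907% of those of Tubg1 were shared with Tubg2. How reads matching several genes were counted is not given in the sources used here, so the split among the alpha genes and between Tubb2a and Tubb2b is uncertain. So is the order of genes with many shared windows, such as Tuba1b, against genes with none, such as Tubb5.

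Libraries held 14816218 to 28084979 counts, and the lowest count of a member in any library was 19, for Tubb3. Values below are CPM (counts scaled to a common library size, with TMM factors over the 52 libraries), given as mean ± SD over the 4 libraries of a clone or over clone means of a group. The balance of long to short transcripts varied between libraries: an index of it (median centered log2 level of 3533 genes with models over 6000 bases minus that of 1886 genes under 2500 bases) set 7 libraries more than 0.2 from the median of their clone. These were AB replicate 1 and Wdr60 replicate 1 of the non-ciliated set, and G7 replicate 4 and all 4 Wdr60 libraries of the ciliated set. Clone means of the index ran from -0.042 to 0.122 in ciliated controls, -0.090 to 0.038 in ciliated mutants, -0.140 to 0.096 in non-ciliated controls and -0.179 to -0.127 in non-ciliated mutants. Of the collecting duct markers, Aqp2 reached at most 1 count in a library, whereas Pax8 and Tfcp2l1 were well expressed; none of 9 neuronal markers passed the filter. Control G7 of the ciliated and control 2 of the non-ciliated set stood apart in markers of the epithelial junction and keratins: E-cadherin (Cdh1) was 14.4 and 4.22 CPM there against 241.8 to 648.7 CPM in the other clones, Epcam 13.5 and 2.86 against 182.8 to 836.5 CPM, and Krt8 26.3 and 41.0 CPM. Other genes of that marker list were highest in the same 2 clones, Pax2 at 309.5 and 276.9 CPM against 80.6 to 182.1 CPM and Pax8 at 419.0 and 299.9 CPM against 150.1 to 291.8 CPM. Krt8 was also low in ciliated Wdr34 clone 3, at 76.7 CPM, against 371.9 to 950.2 CPM in the other 10 clones. Wdr34 mRNA was 21.7 to 49.5 CPM and Wdr60 mRNA 20.4 to 30.8 CPM over clones, which does not check a missense change.

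Tubb5 and Tuba1b were the main beta and alpha isotypes. Per kilobase of transcript, the mean level over 13 clones was 847 ± 78.2 CPM for Tubb5, the ubiquitous beta isotype, and 743 ± 118 CPM for Tuba1b, and Tubb5 was above Tuba1b in 10 of 13 clones. Tubb4b, an isotype of ciliary axonemes and of many dividing cells, followed at 344 ± 55.7 CPM per kilobase and was below Tuba1b in all 13 clones. Tuba1c (302 ± 57.9) and Tuba1a (291 ± 124) had an order that depended on state: Tuba1c was higher in 6 of 7 ciliated clones, all but Wdr34 clone 3, and Tuba1a in all 6 non-ciliated clones. Below them came Tubb6 at 189 ± 56.4, Tubg1 at 76.5 ± 15.5, Tubb2b at 44.4 ± 17.9, Tubb2a at 30.6 ± 9.53 and Tubb3, best known as a neuronal isotype, at 12.3 ± 13.2 CPM per kilobase. Each of these was above the next in 11 to 13 of 13 clones. In the summed counts, the 10 genes took 0.536% ± 0.0165 of all counts in ciliated controls, 0.536% ± 0.0546 in ciliated mutants, 0.631% ± 0.0414 in non-ciliated controls and 0.649% ± 0.0107 in non-ciliated mutants (SD over clones).

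**Figure D1:**
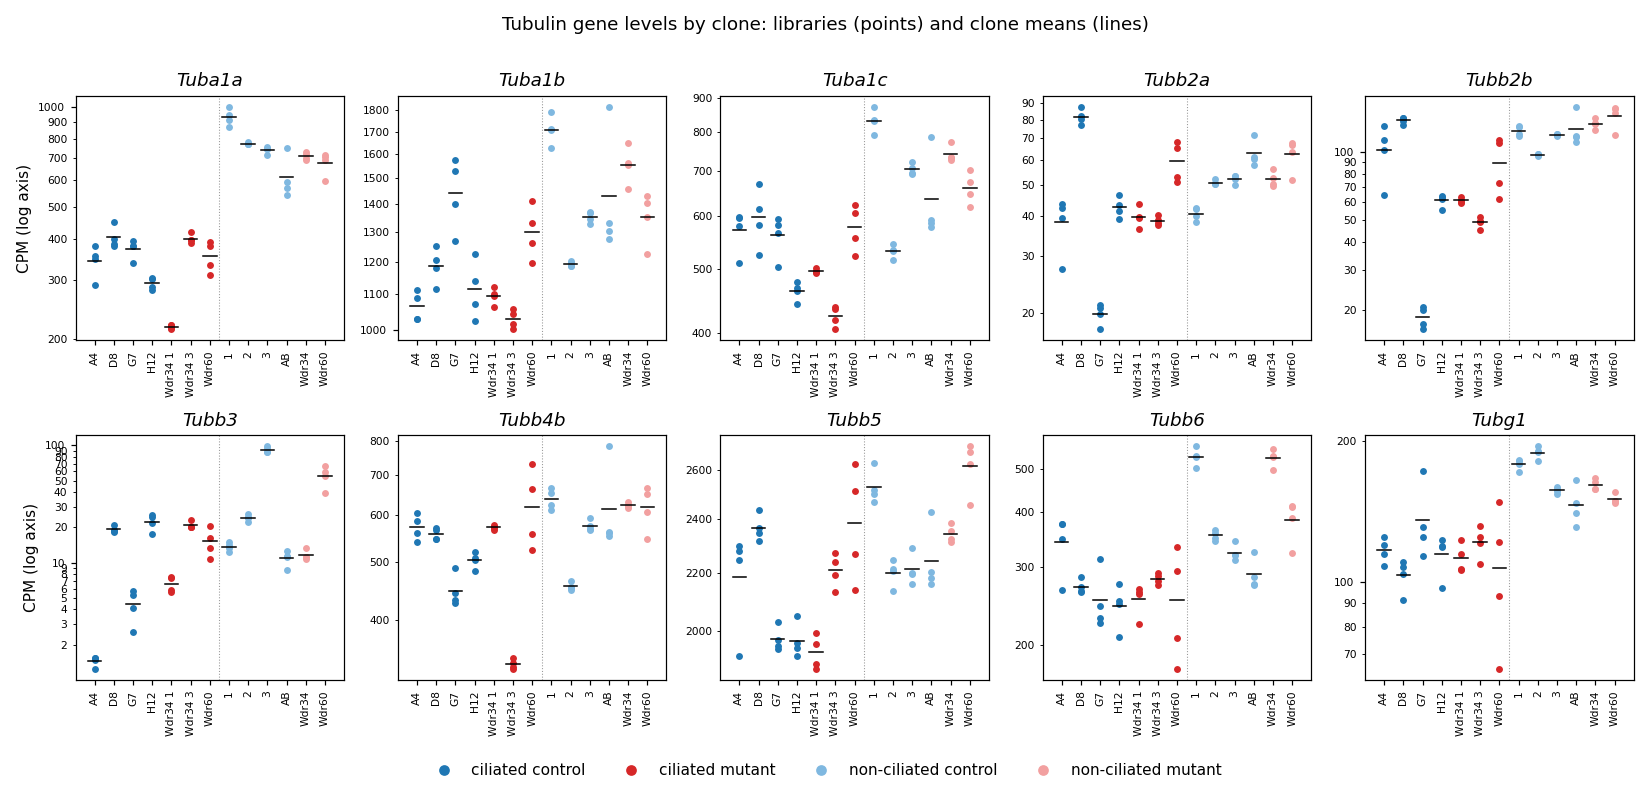
CPM of each tubulin gene on a log axis, 1 panel a gene, with a point for each library and a line at the mean of each of the 13 clones, ciliated clones left and non-ciliated clones right of the dotted line. Tuba1a and Tubg1 clone means are lower in every ciliated clone than in every non-ciliated clone, whereas Tubb3 runs from 1.45 CPM in control A4 to 92.0 CPM in control 3.

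The isotypes differed widely in how steady they were from clone to clone. Tubb5 was the steadiest, with clone means from 1933 to 2614 CPM, a 1.35-fold range, and an SD of 0.11 on the log2 scale after centering within each state, lower than in all but 3.38% of 10858 genes. Tubg1 was next (SD 0.13), with only 7.94% of genes below it. Tubb3 was at the other extreme, with a 63.3-fold range and an SD of 1.33, above 97% of genes, followed by Tubb2b (SD 0.67, above 90.6%) and Tubb2a (SD 0.47, above 82.7%).

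Tubb3 divided the control clones themselves. Among ciliated controls it was 1.45 ± 0.139 CPM in A4 and 4.43 ± 1.41 CPM in G7, against 19.3 ± 1.24 CPM in D8 and 22.3 ± 3.52 CPM in H12. Among ciliated mutants it was 6.60 ± 0.996 CPM in Wdr34 clone 1, 15.2 ± 4.26 CPM in Wdr60 and 20.9 ± 1.51 CPM in Wdr34 clone 3. Non-ciliated control 3 stood highest at 92.0 ± 5.24 CPM, with the other controls at 24.2 ± 1.42 (2), 13.7 ± 1.11 (1) and 11.0 ± 1.68 CPM (AB), and the mutants at 11.7 ± 1.19 (Wdr34) and 55.0 ± 11.4 CPM (Wdr60). High and low clones occurred among controls and mutants of both states, and the spread between clones was far larger than between libraries of a clone.

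Tubb2a and Tubb2b, close paralogs that are most abundant in neurons, were both lowest in control G7 and highest among ciliated clones in control D8. Tubb2b was 18.6 ± 2.03 CPM in G7, 61.0 ± 3.96 CPM in H12, 102.1 ± 27.7 CPM in A4 and 137.4 ± 4.84 CPM in D8, and Tubb2a was 19.8 ± 1.48, 42.7 ± 3.08, 38.3 ± 7.43 and 81.6 ± 4.61 CPM in the same clones. Among ciliated mutants Tubb2b was 48.8 ± 2.62 CPM in Wdr34 clone 3, 61.0 ± 1.57 CPM in Wdr34 clone 1 and 89.0 ± 25.7 CPM in Wdr60, all inside the range of the controls. Non-ciliated clones were closer together, at 96.9 to 144.2 CPM. G7, where both genes were lowest, is the ciliated clone low in Cdh1, Epcam and Map7 (2.38 CPM, against 52.3 to 149.0 CPM in the other ciliated clones), and the part of this in the Tubb2 levels was not tested.

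For these 3 most variable isotypes, the genes with the most similar pattern over the 13 clone means, centered within state, were noted by Pearson's r as a description, since clones share libraries' depth and length balance. Tubb3 was most like Wisp1 (r = 0.87), Bach2 (0.83) and Morn4 (0.81). Tubb2b was most like Tubb2a-ps2 (0.97), a pseudogene with which it shares sequence windows, Ptprn (0.97) and Basp1 (0.97). Tubb2a was most like Thoc6 (0.93), Fndc4 (0.90) and Fgfrl1 (0.90), with Tubb2b itself at 0.86 (rank 13) and Tubg1 at -0.81.

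The state comparison set the 4 ciliated against the 4 non-ciliated control clones, without any edited allele. With libraries as samples, 7 of 10 members fell in ciliated cells and none rose (edgeR quasi-likelihood test, Benjamini-Hochberg adjusted p under 0.05), and with libraries of a clone summed 2 of 10 fell, where 7.33% of all genes did. Of all 11856 genes tested, 60.9% were called, 29.7% as lower and 31.2% as higher, and the median log2 fold change was -0.36 over the members against 0.02 over all genes. The alpha isotype Tuba1a and the nucleator Tubg1 were the members whose clone means did not overlap between the states (2 of 10, where 23.1% of all genes did not overlap, 12.5% below and 10.6% above). With a log2 fold change of at least 1 added to the rule, Tuba1a and Tubb3 were the members called, and 10.3% of all genes.

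Tuba1a, an isotype prominent in developing neurons, was 343.1 ± 38.0 CPM in A4, 404.0 ± 31.7 CPM in D8, 373.3 ± 24.8 CPM in G7 and 293.5 ± 12.2 CPM in H12. In the non-ciliated controls it was 930.5 ± 54.8 CPM in clone 1, 773.2 ± 5.38 CPM in clone 2, 740.7 ± 17.5 CPM in clone 3 and 612.8 ± 94.8 CPM in AB. Every ciliated control library (280.0 to 450.1 CPM) was thus below every non-ciliated control library (540.8 to 999.3 CPM). The log2 fold change was -1.11 (SE 0.08, adjusted p = 3.31e-13 by edgeR), and over clone means the exact permutation test gave p = 0.0286, the smallest that 70 splits allow. The mutant clones lay on the same sides, at 217.4 to 399.7 CPM in the ciliated and 677.4 to 710.3 CPM in the non-ciliated state.

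Tubg1, the gamma-tubulin of the ring complex, was 103.2 ± 8.10 CPM in D8, 114.6 ± 11.7 CPM in H12, 116.9 ± 7.21 CPM in A4 and 135.5 ± 25.9 CPM in G7. The non-ciliated controls had 145.9 ± 14.5 CPM in AB, 156.8 ± 2.43 CPM in clone 3, 178.4 ± 4.94 CPM in clone 1 and 188.8 ± 5.70 CPM in clone 2. Clone means did not overlap, although single libraries did, since G7 replicate 4, a library with a shifted length balance, reached 172.7 CPM. The log2 fold change was -0.51 (SE 0.07, adjusted p = 1.32e-07 by edgeR; exact permutation p = 0.0286 over 8 clones). It was -0.55 without the libraries of shifted length balance and -0.53 without controls G7 and 2, where Tuba1a had -1.14. Over all 7 ciliated and 6 non-ciliated clones, mutants included, Tuba1a and Tubg1 were again the members entirely lower in the ciliated state, where 8.96% of 12544 genes were.

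The other called members overlapped between states in their clone means. Tubb6 was 277.7 CPM on average in ciliated and 375.4 CPM in non-ciliated controls (log2 fold change -0.43, SE 0.11, adjusted p = 0.000883), and the exact permutation p over clones was 0.0857. Tuba1c fell by 0.30 (adjusted p = 0.00154), Tuba1b by 0.24 (adjusted p = 0.00748) and Tubb5 by 0.11 (adjusted p = 0.0427) on the log2 scale in edgeR. Of these, Tuba1b lost its call without control A4 (-0.19, adjusted p = 0.0557) or control 1 (-0.14, adjusted p = 0.113), and Tubb5 without G7, H12 or control 1 (-0.070 to -0.061, adjusted p from 0.194 to 0.293) and without replicate 1, 2 or 3 (adjusted p from 0.0547 to 0.244), as well as under most other settings. Tubb3 had the largest log2 fold change, -1.56 (SE 0.48, adjusted p = 0.00578), which rested on control 3 and was -0.46 (adjusted p = 0.375) without that clone.

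Tubb2b (-0.54, adjusted p = 0.0644), Tubb2a (-0.18, adjusted p = 0.433) and Tubb4b (-0.13, adjusted p = 0.105) were not called. Without control D8, the ciliated clone where both Tubb2 genes were highest, Tubb2b was called at -0.94 (adjusted p = 0.00216) and Tubb2a at -0.62 (adjusted p = 0.000543), and Tubb2a was 0.073 without G7. Without A4, Tubb2b was called at -0.69 (adjusted p = 0.0388) and Tubb4b at -0.18 (adjusted p = 0.0439), and without control 2 Tubb4b at -0.22 (adjusted p = 0.00233). When the libraries of a clone were summed, so that clones were the samples, the 2 members that stayed called as lower were Tuba1a (adjusted p = 0.0102) and Tubg1 (adjusted p = 0.0477). Without controls G7 and 2, the clones low in Cdh1 and Epcam, 7 members were called as lower, where 33.3% of all genes were. Tubb4b (-0.17, adjusted p = 0.00952 by edgeR) was in and Tubb5 (adjusted p = 0.0798) out, and Tubb2a had 0.050.

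**Figure D2:**
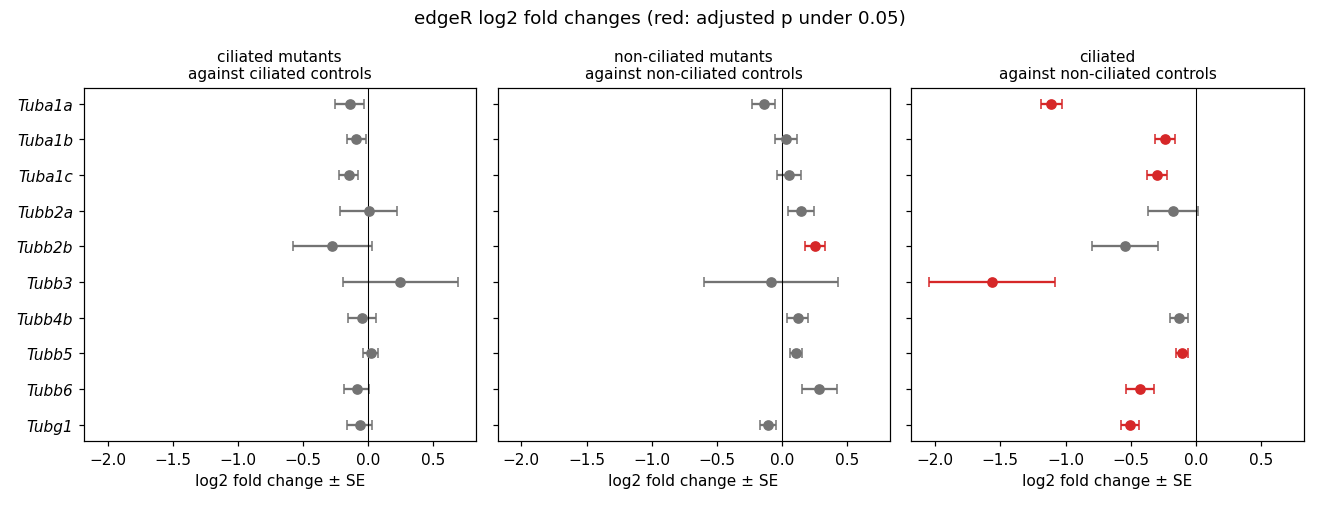
edgeR log2 fold change ± SE of the 10 tubulin genes in ciliated mutants against controls (left), non-ciliated mutants against controls (middle) and ciliated against non-ciliated controls (right), with genes of adjusted p under 0.05 in red. Members called are 0, 1 and 7 of 10, and Tuba1a at -1.11 has a small SE where Tubb3 at -1.56 has an SE of 0.48.

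Wdr60, with 1 clone in each state, was also compared between states, whereas for Wdr34 the labels do not say which ciliated clone has the allele of the non-ciliated one. Tuba1a was 353.9 ± 38.6 CPM in the ciliated and 677.4 ± 54.9 CPM in the non-ciliated clone (log2 fold change -0.92), and Tubb3 (-1.83), Tubb2b (-0.67), Tubb6 (-0.58) and Tubg1 (-0.47) were also lower in the ciliated clone. With 1 clone a state, possibly the same one, these values hold no spread between clones, so no p-value or call is given. All 4 ciliated Wdr60 libraries had a shifted length balance.

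In ciliated cells, no tubulin gene was called between the 3 mutant and the 4 control clones. The edgeR test called 3.21% of 11950 genes (1.5% higher and 1.71% lower, and 0.661% with a log2 fold change of at least 1) and 0 of 10 members. At an unadjusted p under 0.05 there was 1 member, where 19.3% of genes passed, and DESeq2 called 0. That member was Tuba1c, at 499.0 ± 75.9 CPM in mutants and 547.9 ± 58.5 CPM in controls (log2 fold change -0.15, SE 0.07, adjusted p = 0.259). The other values ran from -0.27 (Tubb2b, SE 0.30) to 0.25 (Tubb3, SE 0.44), and the main isotypes were close to 0: Tubb5 had 0.023 (SE 0.058), Tubb4b -0.043 (SE 0.11) and Tuba1b -0.090 (SE 0.075). Clone means overlapped for all 10 members, where 1.93% of all genes did not overlap (1.12% above and 0.812% below).

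The counts of called members moved when clones were left out. Tuba1c was called at -0.27 without the Wdr60 clone (adjusted p = 0.0276), where 5.8% of all genes were called, 3.58% as lower. Tubb2b was called at -0.60 without control G7 (adjusted p = 0.0322), the clone where it was lowest and which was low in Cdh1 and Epcam, and there 16.8% of all genes were called, 8.82% as lower. With libraries of a clone summed, 0 genes in all were called in either mutant comparison, so that each mutant call rests on libraries as samples. The 4 libraries of the ciliated Wdr60 clone were shifted in length balance in both directions, and Tubg1 there ran from 65.3 to 147.7 CPM. The part of this shift in the clone's values was not tested.

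In 2 ciliated mutant clones, all libraries lay below every ciliated control library for some tubulin genes, Tuba1a in one and Tubb4b and Tuba1c in the other. In Wdr34 clone 1, Tuba1a was 217.4 ± 3.27 CPM, below every ciliated control library (280.0 to 450.1 CPM), with a log2 fold change of -0.71. In Wdr34 clone 3, Tuba1a was 399.7 ± 13.6 CPM, within the range of the controls. There Tubb4b, the axonemal isotype, was 337.6 ± 5.97 CPM, with libraries at 334.0, 339.3, 331.8 and 345.2 CPM against 428.0 to 604.3 CPM in the controls (log2 fold change -0.64). Tuba1c was 406.0 to 438.3 CPM there against 442.9 to 669.4 CPM in the control libraries (-0.39). The libraries of 1 clone are technical replicates, so each clone was tested against the 4 controls with libraries summed, a fit that assumes that the lone clone varies like the controls. In that edgeR fit 0 genes in all were called for any of the 3 clones, with adjusted p of 0.999 or more for the members. The log2 fold change in that fit was -0.69 for Tuba1a in Wdr34 clone 1 and -0.64 for Tubb4b in Wdr34 clone 3. Genotype and clone cannot be told apart.

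In non-ciliated cells, Tubb2b was the member called between the 2 mutant and the 4 control clones. It was 133.0 ± 6.56 CPM in Wdr34 and 144.2 ± 17.5 CPM in Wdr60, against 96.9 ± 0.931 CPM in control 2, 119.0 ± 1.15 CPM in control 3, 123.8 ± 5.82 CPM in control 1 and 125.3 ± 21.9 CPM in AB. Both mutant means were above all control means, with a log2 fold change of 0.25 (SE 0.08, adjusted p = 0.0245 by edgeR), but the exact permutation p was 0.133, and 15 splits cannot give less than 0.0667. So 1 of 10 members rose and 0 fell, where 15% of 12012 genes were called, 7.12% as higher and 7.89% as lower, and 1 of 10 had clone means apart, where 12.9% of genes had, 7% above and 5.86% below. With a log2 fold change of at least 1 added, 0 members and 3.06% of genes were called. A share of 1 in 10 members is near these backgrounds.

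The call for Tubb2b was lost in 7 of the 10 fits that left out a replicate number or a clone, namely without replicate 2, 3 or 4, without control 2 or 3 and without either mutant clone (0.17 to 0.31, adjusted p from 0.0522 to 0.218). It was also lost with the length index as a covariate (0.16, adjusted p = 0.0947), and the index was lower in the mutant clones (-0.179 in Wdr60 and -0.127 in Wdr34) than in controls 1, 2 and 3. The AB mean of -0.140 rests on replicate 1, and its other 3 libraries had a mean of 0.088, so that without that library all 4 controls lay above both mutant clones. The part of the length balance in this difference was not tested further. The other members ran from -0.14 (Tuba1a) to 0.29 (Tubb6), with adjusted p of 0.110 or more. Without AB, Tuba1a was called at -0.24 and Tubg1 at -0.17 as lower and Tubb2a at 0.25 and Tubb2b at 0.29 as higher, where 31.1% of all genes were called. Without control 1, Tubb5 was called at 0.15 and Tubb6 at 0.50 as higher beside Tubb2b, where 17.3% of all genes were called.

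Each non-ciliated mutant clone was also set against the 4 controls. Tubb6, an isotype known to disturb microtubule organization when overproduced, had a log2 fold change of 0.51 in the Wdr34 clone, but the clone lay within the range of the controls, at 530.9 ± 23.9 CPM against 534.3 ± 24.2 CPM in control 1. Tubb5 in the Wdr60 clone, the clone of lowest length index in the non-ciliated set, was 2614 ± 111 CPM against 2200 to 2527 CPM in the controls (0.19). With libraries of a clone summed, 0 genes in all were called for either clone by edgeR, and 0 members had an unadjusted p under 0.05. The interaction term of edgeR, which tests whether mutants differ from controls by the same amount in both states, was called for 1.89% of 12544 genes and for 0 of 10 members. At an unadjusted p under 0.05 there was 1 member (Tubb6, -0.36, adjusted p = 0.296) and 14.4% of genes, and DESeq2 called 0 members.

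Isotype use was then expressed as the share of each gene in the summed counts of the alpha or beta members. Tuba4a, an alpha gene outside the members, was left out of these sums and had 116.3 to 328.7 CPM over the clones. Tuba1b and Tubb5 held the largest shares in all 13 clones, Tuba1b 47.8% to 60.7% of alpha and Tubb5 63.4% to 75.2% of beta. In ciliated controls the alpha counts were 16.8% ± 1.34 Tuba1a, 57.1% ± 3.496 Tuba1b and 26.1% ± 2.35 Tuba1c, and in non-ciliated controls 26.8% ± 3.29, 49.7% ± 2.52 and 23.5% ± 1.65 (SD, n = 4 clones).

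Tuba1a thus held a smaller share of the alpha counts in ciliated controls, by -9.99 percentage points, at 15.7% to 18.5% against 22.9% to 31.0%, and Tuba1b 7.41 points more, at 53.9% to 60.7% against 47.8% to 53.4%. Without controls G7 and 2 these differences were -8.24 and 5.59 points, with clone means still apart. Over all 8 clones both had clone means apart (2 of 9 shares) and an exact permutation p = 0.0286, or 0.129 after adjustment over the 9 shares. Per kilobase they were -10.0 and 7.67 points. The Tuba1a share stayed apart in every alternative run, whereas the Tuba1b share overlapped without replicate 1 (6.98 points, exact p = 0.0571) and when all alpha-tubulin symbols formed the denominator (5.45 points, exact p = 0.0857). As a share of all counts Tuba1b was not higher in ciliated controls, with a difference of -0.0159 points (exact permutation p = 0.257).

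Beta shares overlapped between the states. Tubb5 held 69.6% ± 2.21 of the beta counts in ciliated and 66.7% ± 1.81 in non-ciliated controls (exact permutation p = 0.0857, n = 4 clones each). Tubb4b held 17.1% ± 0.788 and 16.5% ± 1.65, Tubb6 9.07% ± 1.10 and 10.8% ± 2.23, Tubb2b 2.49% ± 1.42 and 3.37% ± 0.312, Tubb2a 1.44% ± 0.697 and 1.52% ± 0.344, and Tubb3 0.388% ± 0.344 and 1.04% ± 1.14. Clone means overlapped for all 6 beta shares.

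Mutants and controls overlapped in all 9 shares in both states, with exact permutation p of 0.6 or more over the ciliated clones and 0.267 or more over the non-ciliated clones. The spread among ciliated mutant clones was wide: the Tuba1a share was 12.02% in Wdr34 clone 1 and 21.55% in Wdr34 clone 3, and the Tubb4b share 19.96% and 11.50% in the same clones. In Wdr34 clone 3 the lower Tubb4b share went with the highest Tubb5 share of all clones, 75.2%.

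**Figure D3:**
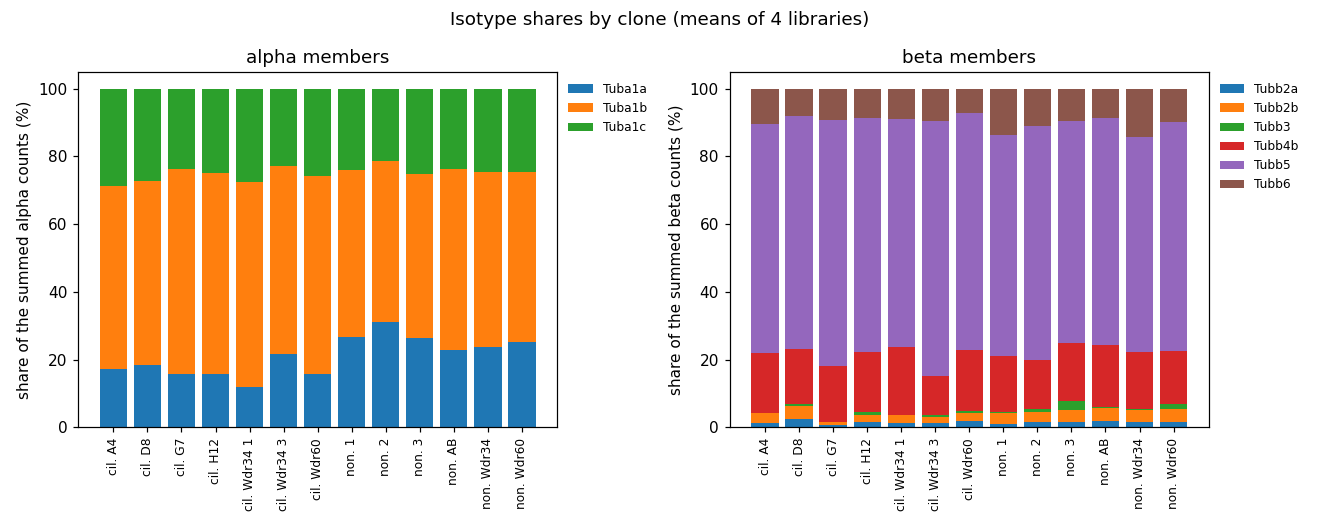
Stacked bars of the share (%) of each gene in the summed counts of the 3 alpha members (left) and the 6 beta members (right), 1 bar for the mean of the 4 libraries of each clone. The Tuba1a segment is 12.02% to 21.55% in ciliated and 22.9% to 31.0% in non-ciliated clones, while Tubb5 holds 63.4% to 75.2% of beta.

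The chaperonin that folds tubulin was also lower in the ciliated state. New tubulin chains pass from prefoldin to the cytosolic chaperonin, a ring of TCP1 and CCT subunits, and then to the cofactors that join alpha to beta. All 8 chaperonin genes were lower in ciliated than in non-ciliated controls, from -0.70 (Tcp1) to -1.13 (Cct8, 281.3 to 372.3 against 591.9 to 880.9 CPM, adjusted p = 1.59e-13), with Cct6a (-0.97) and Cct2 (-0.94) next to it, and clone means of 7 of 8 did not overlap, the exception being Cct7. Over the whole folding list of 21 genes, 11 fell and 4 rose (median -0.41, all genes 0.02), where 29.7% of all genes were called as lower and 31.2% as higher. With libraries of a clone summed, where 13.4% of all genes were called, 7 of 8 chaperonin genes stayed called, all but Cct7. Without controls G7 and 2 all 8 were lower, where 33.3% of all genes were. Prefoldin subunits were mixed, with Vbp1 and Pfdn4 lower and Pfdn5 higher, and so were the cofactors, with Tbcc (0.78), Tbcel (0.66) and Tbce (0.40) higher and Tbcd (-0.49) lower. Of these, 0 of the prefoldin subunits stayed called with libraries of a clone summed, and of the cofactors Tbcc, Tbcel and Tbcd did. The chaperonin folds actin and other proteins besides tubulin.

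In non-ciliated mutants, 5 of the 21 folding genes were higher than in controls and 0 lower, where 7.12% of all genes were higher and 7.89% lower, and 0 of the 5 stayed called with libraries of a clone summed. The prefoldin subunits Pfdn2 (72.9 to 78.2 against 40.95 to 52.02 CPM, 0.71, adjusted p = 5.91e-05), Pfdn6 (0.49, adjusted p = 0.00666) and Pfdn1 (0.42, adjusted p = 0.00334) led, with clone means apart and the smallest exact permutation p that 15 splits allow, 0.0667. Tbca and Cct6a were the other 2. The length index was lower in both mutant clones than in controls 1, 2 and 3, and its part in these folding genes was not tested. The same 5 were called without control 2, where 7.24% of all genes were called as higher. In ciliated mutants 0 of 21 folding genes were called (edgeR), and clone means of 2 of 21 did not overlap, where 1.93% of all genes did not. Without control G7, Cct2, Cct4 and Tbce were called as lower there, where 16.8% of all genes were called and 8.82% as lower.

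**Figure D4:**
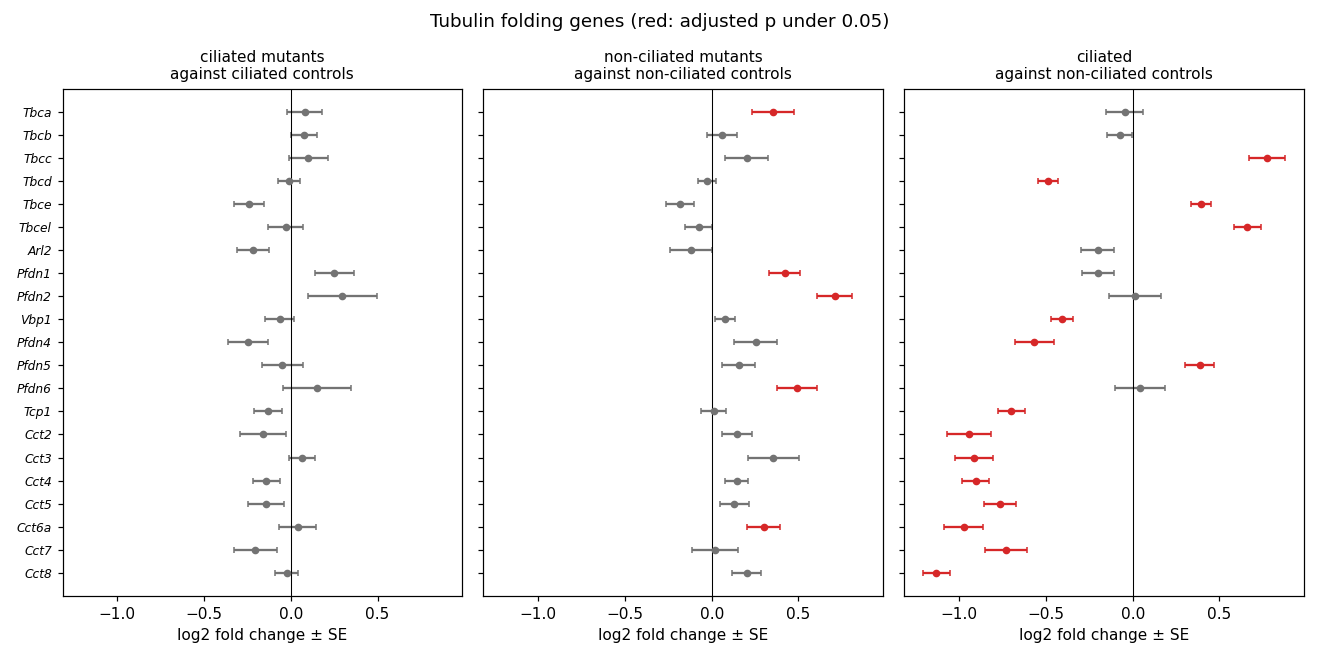
edgeR log2 fold change ± SE of 21 genes for tubulin cofactors (top), prefoldin subunits (middle) and chaperonin subunits (bottom) in the same 3 comparisons, with adjusted p under 0.05 in red. All 8 chaperonin genes lie between -1.13 and -0.70 in ciliated against non-ciliated controls, and 5 genes are called as higher in non-ciliated mutants.

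Of 8 ring complex genes, partners of gamma-tubulin, 6 were called between the states, near the 60.9% of all genes. With libraries of a clone summed 3 were (Tubgcp2, Tubgcp4 and Nedd1), where 13.4% of all genes were called. Higher in ciliated controls were 4, among them Tubgcp2 (0.56, 97.8 to 123.5 against 68.9 to 85.7 CPM), and 2 were lower, Tubgcp4 (-0.85, 22.6 to 33.1 against 40.0 to 52.8 CPM) and the anchoring factor Nedd1 (-0.41). In non-ciliated mutants 1 of 8 was called, Nedd1 at -0.17 (adjusted p = 0.0418 by edgeR), near the 15% of all genes called. Its clone means overlapped (exact permutation p = 0.2), and it had no call without control 2. In ciliated mutants 0 of 8 were called, where 3.21% of all genes were.

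Of the 3 genes of tubulin mRNA autoregulation, Ttc5 (0.25, adjusted p = 0.000620) and its partner Scaper (0.31, adjusted p = 0.00496) were higher in ciliated controls, where 31.2% of all genes were, with clone means that overlapped (exact permutation p = 0.0571 and 0.114). With libraries of a clone summed 0 of 3 were called (13.4% of all genes), and without controls G7 and 2 only Ttc5 (65.6% of all genes). Neither mutant comparison called any of the 3.

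Among 16 tested enzymes that modify the tails or lysines of tubulin, 8 were higher and 3 lower in ciliated controls, a share called near that of all genes (60.9%). With libraries of a clone summed, 2 of 19 tested were higher and 2 lower, where 13.4% of all genes were called. The deglutamylase gene Agbl3 (1.71, 6.36 to 10.8 against 1.66 to 3.399 CPM) and the glycylase gene Ttll10 (1.60) rose most, while the glutamylase gene Ttll7 fell by 1.04 on the log2 scale. Clone means of Ttll10 overlapped (1.79 to 5.47 against 0.462 to 2.48 CPM), and its call was lost with libraries of a clone summed. In non-ciliated mutants Ttll7 was higher (0.45), and the acetyltransferase gene Atat1 (-0.50) and the deacetylase gene Hdac6 (-0.29) had edgeR calls as lower, so that 1 of 15 was called as higher and 2 as lower, where 15% of all genes were called. Clone means overlapped for Atat1 and Hdac6 (exact permutation p = 0.267 for each). Without control 2 the calls were Ttll7 and Ttl as higher and Atat1 as lower, where 14.7% of all genes were called. In ciliated mutants 0 of 16 were called, and without control G7 2 of 16, Ttll4 and Ttll7, where 16.8% of all genes were.

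Of 21 tested microtubule-associated and severing proteins, 12 were lower and 3 higher in ciliated controls, where 29.7% of all genes were lower and 31.2% higher. With libraries of a clone summed, 3 of 23 tested were lower and 2 higher, where 13.4% of all genes were called. Map7 (1.51) had clone means from 2.38 to 149.0 CPM in ciliated controls and overlapped the non-ciliated ones, Map6 was lower (-0.90), and Stmn1, the tubulin-sequestering stathmin, was higher (0.85, 154.3 to 268.4 against 103.0 to 138.2 CPM). In ciliated mutants 2 of 22 were called as higher and 2 as lower, where 3.21% of all genes were called (without control G7, 1 higher and 4 lower of 21, where 16.8% of all genes were called), and the largest value, 3.49 for Map2, came from Wdr34 clone 3 alone, at 29.5 CPM against 0.0699 CPM in Wdr34 clone 1 and 0.0821 CPM in Wdr60. Map1b (-0.91) and Mapre2 (0.53) had edgeR calls, with clone means that overlapped (exact permutation p = 0.171 and 0.143). In non-ciliated mutants 1 of 22, the katanin-like gene Katnal2 (0.60), was called as higher, where 7.12% of all genes were. Its clone means also overlapped (exact permutation p = 0.2).

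Of the 10 further tubulin symbols listed, 5 were tested between states, where 31.2% of all genes were higher in ciliated controls. Of these 1, Tubb4a, was higher at a low level (2.03, 1.43 to 2.72 against 0.214 to 0.785 CPM). In the ciliated and non-ciliated mutant comparisons 0 were called, against 3.21% and 15% of all genes. Without control G7, Tubd1 was called as higher in ciliated mutants, where 7.97% of all genes were. For the interaction, 0 genes were called in any of these lists.

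Markers that moved beside the tubulin genes are given as values, and their part in the differences was not tested. Of 10 proliferation genes, 5 were lower and 2 higher in ciliated controls, where 29.7% of all genes were lower and 31.2% higher, led by Aurka (-0.79), Pcna (0.60) and Birc5 (-0.44). With libraries of a clone summed, where 13.4% of all genes were called, Aurka and Pcna stayed called. Without controls G7 and 2 there were 7 lower and 2 higher, where 33.3% of all genes were lower and 32.3% higher. In the mutant comparisons 0 of 10 were called. Cdk1 and Pcna were called in ciliated mutants without control G7 (16.8% of all genes), and Mcm5 in non-ciliated mutants without control 2 (14.7% of all genes). Of 9 tested collecting duct and epithelial markers, 3 were higher in ciliated controls, Scnn1a (0.87), Tfcp2l1 (0.85) and Pax8 (0.41), near the 31.2% of all genes. When libraries of a clone were summed, Tfcp2l1 alone was still called, where 13.4% of all genes were. Without controls G7 and 2, the clones low in Cdh1 and Epcam, 5 were higher, Cdh1 and Epcam among them, and 1 lower. In that fit 32.3% of all genes were higher and 33.3% lower. In non-ciliated mutants Pax2 (-0.68) and Pax8 (-0.47) were lower, where 7.89% of all genes were, and without control 2 Pax2 and Krt18, where 7.43% were. In ciliated mutants 0 were called, and without control G7 Cdh1 and Scnn1a were lower, where 16.8% of all genes were called and 8.82% as lower. Controls G7 and 2 were singled out by low Cdh1, Epcam and keratins, so calls of such markers in fits without them follow partly from that choice. The 9 neuronal markers summed to at most 0.760 CPM in a clone, also where Tubb3 was high. Of fibroblast markers Col1a1 was lower in ciliated controls (-1.46, at most 5.34 CPM), a call lost with libraries of a clone summed. The fibroblast marker Dcn was 29.2 CPM in ciliated Wdr34 clone 3, the clone with Tubb4b below every ciliated control library, and at most 1.01 CPM in the other 12 clones. There Col1a1 was 1.17 CPM, inside its range over clones (0.342 to 5.34 CPM), and every other fibroblast marker was at most 0.785 CPM. Of immune markers Csf1r was higher in ciliated controls (2.66) and Cd68 lower (-0.62), the latter not without controls G7 and 2. Cd68 was also lower in ciliated (-0.95) and non-ciliated mutants (-0.67), and Csf1r in the latter (-0.72), a call lost without control 2.

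Within clones, levels of the tubulin genes varied with the length balance of the library, as those of short genes in general did. Over 52 libraries, the deviation of the log2 level from its clone mean correlated with that of the long-to-short index for all 10 members with a negative sign, from -0.38 for Tuba1b to -0.90 for Tubb4b (Pearson's r, a description, since libraries of a clone share their source and 7 libraries carry much of the range). Of the members, 9 have models under 2500 bases and are themselves among the short genes of the index, of which 83.9% had a negative sign (median -0.57), against 48.9% of 10482 genes of any length. Within the 4 libraries of AB, for example, Tubb4b ran from 553.0 to 782.5 CPM, the highest in replicate 1 with an index of -0.825.

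**Figure D5:**
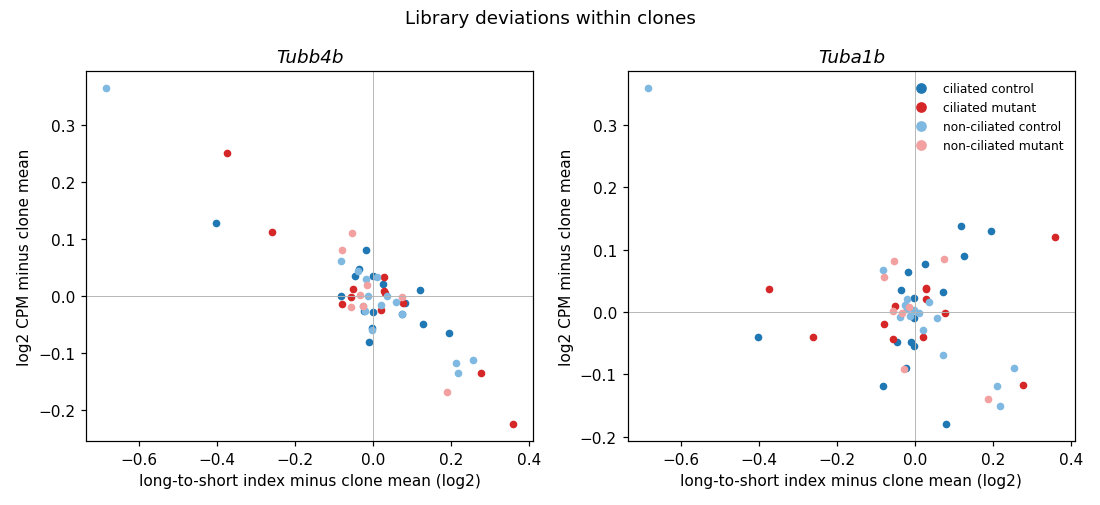
Deviation of each library from its clone mean in log2 CPM (vertical axis) against its deviation in the long-to-short index (horizontal axis, log2) for Tubb4b and Tuba1b, with 52 libraries colored by group. Tubb4b falls along a line as the index rises (r = -0.90), while Tuba1b scatters (r = -0.38).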

How the data were processed

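RNA of 13 clones was sequenced in 4 technical replicate libraries each (SMARTER mRNA-Seq kit). The authors aligned reads to GRCm38/mm10, counted them per gene symbol with featureCounts, and deposited raw counts without normalization. Strand setting and handling of multi-mapping reads are not given in the sources used here. The authors' own tests used DESeq2 1.18.1 in R 3.4.4, per the labels' processing notes. Library totals are given with the results.

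Counts were tested in R 4.3.3 with edgeR 4.0.16 (filterByExpr, TMM, glmQLFit and glmQLFTest, 2-sided), with libraries as samples, Benjamini-Hochberg adjustment over all genes tested and calls at an adjusted p under 0.05. Libraries of a clone are not independent, and nothing in the labels says they came from separate cultures. The p-values with libraries as samples mix the spread between libraries and between clones, and tend to be too small for differences between groups of clones. For that reason clone means of log2 CPM were also compared by exact 2-sided permutation (35 splits in ciliated, 15 in non-ciliated cells, 70 between control sets). The 70 splits took the control clones of the 2 states as unpaired. Libraries of a clone differed by more than sampling noise (chi-square per degree of freedom 2.02 to 109), and none was merged in the main fits. That does not make them independent samples. In a test on simulated data with 2-fold changes, edgeR recovered 93% of changed genes for the ciliated comparison, 97% for the non-ciliated and 98% for the state comparison. The simulated libraries were drawn independently, without the spread between clones, so this recovery does not tell what so few clones can show. The alternative fits used limma 3.58.1 (with voomLmFit of edgeR) and DESeq2 1.42.0, and tables were made in Python 3.11.15.

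All 10 members are named. Of each other list, up to 3 called genes of largest log2 fold change per comparison are named. Further folding genes and other called list genes were named after their values were seen. For the 3 most variable members, the 3 genes of highest correlation are named. Members and lists were chosen with earlier results of these data known. The coding ends of the other alpha genes are not reported here. Transcript lengths came from GENCODE vM21 on GRCm38. Alternatives were DESeq2, scaling by RLE, a looser filter (1 count in any library) and a stricter one (10 counts in every library), summed libraries, voomLmFit, a replicate block, a log2 fold change of at least 1, and leaving out each replicate number and clone. Added after the data were seen were the length index as a covariate, leaving out libraries of shifted index or the control clones low in Cdh1 and Epcam (G7 and 2), summed libraries for single mutant clones, and a wider share denominator.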

Additional observations from a re-analysis of the deposited data

Results flagged for a closer look

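In groups of 4, a value was listed here when its gap to the nearest of the others, over the whole range, passed Dixon's 95% critical value. Of 150 groups (130 of libraries within a clone, 20 of clone means), 13 passed, where chance gives about 1 in 20, or 7.5.

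Of these, 5 were in a single library, replicate 1 of non-ciliated control AB, whose long-to-short index was -0.825. Tuba1b was 1817 CPM there against 1275 to 1330 in the other 3 libraries, Tuba1c 786 against 576 to 592, Tubb2b 158 against 110 to 117, Tubb4b 782 against 553 to 562, and Tubb5 2427 against 2159 to 2202 CPM. All 5 were high, and the part of the length balance in them was not tested.

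Low single libraries were Tubb5 in replicate 1 of ciliated control A4 (1920 against 2244 to 2298 CPM), Tubb6 in replicate 1 of ciliated Wdr34 clone 1 (224 against 262 to 267 CPM) and Tubg1 in replicate 1 of ciliated control H12 (97.2 against 119 to 123 CPM). High ones were Tuba1a in replicate 1 of non-ciliated control 2 (781 against 770 to 771 CPM), Tuba1c in replicate 4 of non-ciliated Wdr34 (774 against 728 to 733 CPM) and Tubb3 in replicate 2 of ciliated Wdr34 clone 3 (23.2 against 20.1 to 20.3 CPM).

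Among clone means of the non-ciliated controls, clone 3 was above the others in Tubb3 (92.0 against 11.0 to 24.2 CPM), and clone 1 in Tubb5 by a smaller ratio (2527 against 2200 to 2242 CPM), below the 2614 CPM of the non-ciliated Wdr60 clone.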

How the results depend on the processing

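Of the log2 fold changes of members under the alternatives, 548 kept their direction and side of the threshold, 40 lost and 17 gained the call, and 35 changed sign; the cause was not tested. The summed fit has fewer samples, and the limit on fold change narrows the rule itself. Depth limits Tubb3 most, at 19 counts in 1 library.

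Genes called in all were 383 in ciliated mutants, and 852 with DESeq2, 581 with at least 1 count in any library, 0 with summed libraries, 7 with voomLmFit, 243 with a replicate block, 940 without libraries of shifted index, 79 with a log2 fold change of at least 1, and 54 to 1993 when a replicate or clone was left out (the highest without G7). For non-ciliated mutants 1803 became 0 summed, 9 with voomLmFit, 3454 without shifted libraries, 368 with the fold limit and 416 to 3692 in the fits that left something out (highest without AB). For the state 7221 became 1764, 3102 with voomLmFit and 1219 with the fold limit. The interaction gave 237, and 437 with DESeq2 and 0 summed. For single mutant clones DESeq2 gave 655 genes in ciliated Wdr34 clone 1 and 1288 in ciliated Wdr60, and 2 members higher in non-ciliated Wdr60, whereas summed libraries gave 0 genes and 0 members in each of the 5 clones.

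Members called as lower in ciliated mutants were 0, and 1 without shifted libraries, which takes out the whole Wdr60 clone, and 0 to 1 in the fits that left out a replicate or clone. Members called as higher in non-ciliated mutants were 1, and 0 summed, with voomLmFit, with the index as covariate and with the fold limit, and 0 to 3 when something was left out, with 0 to 2 lower. Members lower in the ciliated state were 7, and 2 summed, 4 with voomLmFit and 2 with the fold limit. Shares with clone means apart were 2 for the state, and 1 of all counts, 1 over all symbols and 1 to 3 when something was left out; Tuba1b turned to -0.0159 points of all counts. For non-ciliated mutants the shares apart were 1 without shifted libraries and 0 to 3 in the fits that left something out (3 without Wdr60 or AB), and for ciliated mutants 0 to 1 (1 without Wdr34 clone 3).

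Log2 fold changes that changed sign, in ciliated mutants, were Tubb2b with voomLmFit (0.030), Tubb2a (-0.27), Tubb5 (-0.054) and Tubg1 (0.024) without shifted libraries and Tubb2a (-0.045) with the covariate. In non-ciliated mutants they were Tubb3 with voomLmFit (0.10) and Tuba1b (-0.031) and Tubb3 (0.26) with the covariate. Leaving out a replicate or clone moved ciliated mutant values of Tuba1a from -0.32 to 0.086, Tuba1b from -0.20 to 0.020, Tubb2a from -0.24 to 0.44, Tubb2b from -0.60 to 0.12, Tubb3 from -0.14 to 0.77, Tubb4b from -0.21 to 0.18, Tubb5 from -0.051 to 0.11, Tubb6 from -0.14 to 0.020 and Tubg1 from -0.12 to 0.023. In non-ciliated mutants Tuba1b ran from -0.073 to 0.14, Tuba1c from -0.049 to 0.17 and Tubb3 from -1.59 to 1.02, and between states Tubb2a from -0.62 to 0.073. Without controls G7 and 2 together, Tubb2a was 0.050 between states, with 7 members called as lower, where 33.3% of all genes were.

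The replicate numbers did not pair the samples: deviations of same-numbered libraries correlated by 0.0249 in the median (-0.489 to 0.789, 144 pairs) and those of different numbers by -0.00533. With a replicate block, members called stayed 0 in ciliated and 1 in non-ciliated mutants and were 6 in the state comparison.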
